A study of Mus musculus with 8 samples.

Results

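The clustered histone genes of the mouse were examined in a single-cell RNA-seq pool of embryonic kidneys. They were all genes of the deposited table whose symbol began with Hist1h, Hist2h, Hist3h or Hist4h, which gave 67 of 32285 genes. Of these, 6 encoded the linker histone H1, 18 H2A, 18 H2B, 12 H3 and 13 H4. The pool held the kidney cells of 4 male embryos at E17.5 by the sample labels (the paper names the stage a day later). It also held 4508 cells with other tags, whose source was not examined and which were left out. Mice 1 and 2, tagged ko, were Trim28 delta/delta, with the floxed segment of both Trim28 alleles deleted by Cre. Mice 3 and 4, tagged wt, were Trim28 f/f, which carried the same floxed alleles unrecombined. Cre came from a Six2 promoter-driven EGFP-cre transgene that is active in nephron progenitors and therefore reaches the nephron epithelium that descends from them, but not the stroma, endothelium, ureteric bud or immune cells. The cells of each mouse carried a lipid-anchored DNA tag of their own, were pooled and were counted as unique molecular identifiers (UMIs) at the 3' ends of transcripts. The 3 KO and 3 control bulk RNA samples of P0 kidneys were not analysed here.

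Histones are the proteins around which DNA is wound: H2A, H2B, H3 and H4 form the core of the nucleosome and H1 binds the DNA that links neighbouring cores. A cell that copies its DNA must also supply histones for the new copy, and the clustered genes are known for being transcribed mainly while DNA is replicated. Their mRNAs are unusual in that most end in a conserved stem-loop instead of a poly(A) tail. The stem-loop is bound by Slbp and the transcript is cut behind it, with the help of the U7 snRNP, whereas Npat acts at the promoters of the clustered genes. A minority of the clustered genes is listed in databases as having polyadenylated or replication-independent transcripts as well, among them Hist1h1c, Hist1h2bc, Hist1h2be, Hist2h2be, Hist3h2a, Hist3h2ba and Hist4h4. The capture primer of the assay binds poly(A), so the UMIs report the transcripts of these genes that carried a run of A, and what share of all their mRNA that is was not measured.

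The stem-loops are shown because they are the feature by which these transcripts are processed. In the GENCODE M21 transcripts (GRCm38), a perfect stem of 6 base pairs around a loop of 4 bases lay behind the stop codon of 44 of the 67 genes (4 H1, 11 H2A, 10 H2B, 8 H3 and 11 H4 genes). The same search found it in 83 of 21951 protein-coding genes (0.378%), these members included. There were 6 distinct stem-loops. In the lines that follow, the bases of the stem are in capitals and those of the loop in lower case, 5' to 3', and T stands for U.
Hist1h2ap, Hist1h2ae, Hist1h1e, Hist1h1c, Hist3h2ba, Hist3h2a and other genes, 26 in all: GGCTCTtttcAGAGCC
Hist1h4d and other H4 genes, 7 in all: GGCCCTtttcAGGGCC
Hist1h3c and other genes, 6 in all: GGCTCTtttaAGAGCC
A further pair of genes: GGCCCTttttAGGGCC
Another pair of genes: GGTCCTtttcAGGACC
Hist2h2ac, 1 gene: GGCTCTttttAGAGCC
The stem-loop began 21 to 58 bases behind the stop codon, with a median of 31. The other 23 genes, among them Hist1h1b, Hist1h1a and Hist1h2bc, had no such stem-loop in their annotated transcripts, which says only that these letters were not in the annotated 3' end.

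How far the annotated transcript ran on behind the stem-loop differed between the members. In Hist1h2ap it ended 3 bases behind it, in Hist1h3c 74, in Hist3h2ba 169, in Hist1h1c 840 and in Hist3h2a 1643 bases behind it. A poly(A) signal lay in the last 50 bases of a transcript of 17 members, of which 13 also had the stem-loop, Hist3h2ba, Hist3h2a, Hist1h1c, Hist1h2ae and Hist1h4h among them. Many members are near copies of each other, which bears on every count of a single gene. In 28 members, more than 50% of the 90-base windows in the last 400 bases of the transcripts occurred in another gene, and in 20 members no window did. Hist1h2ap shared 100% of its windows and Hist1h1e 100% (with a transcript of Hist1h2be), so that their counts are uncertain. Hist1h2ae shared 37.0%, Hist1h3c 35.0%, Hist1h4h 49.2%, Hist2h2ac 11.6% and Hist3h2ba 2.25%. Hist1h1b, Hist1h1c, Hist1h2bc, Hist3h2a and Hist1h4d shared none.

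The promoters are shown for members that rose from G1 to S in NPC-like cells (Hist1h1b and Hist1h1e) and 1 that fell (Hist3h2ba). A RefSeq promoter (GRCm38.p6, 250 bases before to 50 after the start) was matched to 60 of the 67 genes. On either strand, CCAAT occurred in 51 of these promoters (85.0%) against 37.9% of all 27025 promoters. It was present in every H1, H2A, H2B and H3 promoter but in 3 of 12 H4 promoters. TATAAA occurred in 56.7% of the members' promoters against 14.2% of all. The octamer ATTTGCAT occurred in 7 of 17 H2A and 6 of 16 H2B promoters, in no other member and in 1.75% of all promoters. AAACACA, a word known from H1 promoters, occurred in 4 of 5 H1 promoters against 7.14% of all promoters. Matches of different words can overlap by a few letters at their ends, and a match is a description of the sequence and not of a bound site. For 3 members that the results turn on, the promoters are printed with the matches of these words on either strand in capitals.
Hist3h2ba, chr11:58948661-58948960, plus strand: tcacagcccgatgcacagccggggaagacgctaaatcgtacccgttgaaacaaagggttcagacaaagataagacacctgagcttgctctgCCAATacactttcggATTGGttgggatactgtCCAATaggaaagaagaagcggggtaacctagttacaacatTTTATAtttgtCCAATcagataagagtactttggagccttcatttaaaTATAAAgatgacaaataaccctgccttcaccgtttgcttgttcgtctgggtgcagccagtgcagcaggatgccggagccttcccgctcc
Hist1h1b, chr13:21780576-21780875, minus strand: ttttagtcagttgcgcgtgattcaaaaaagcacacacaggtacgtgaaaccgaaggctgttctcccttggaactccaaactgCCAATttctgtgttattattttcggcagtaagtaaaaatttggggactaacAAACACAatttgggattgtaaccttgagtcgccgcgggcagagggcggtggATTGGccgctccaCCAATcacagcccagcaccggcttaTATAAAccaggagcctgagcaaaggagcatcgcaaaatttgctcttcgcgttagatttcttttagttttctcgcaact
Hist1h1e, chr13:23622509-23622808, minus strand: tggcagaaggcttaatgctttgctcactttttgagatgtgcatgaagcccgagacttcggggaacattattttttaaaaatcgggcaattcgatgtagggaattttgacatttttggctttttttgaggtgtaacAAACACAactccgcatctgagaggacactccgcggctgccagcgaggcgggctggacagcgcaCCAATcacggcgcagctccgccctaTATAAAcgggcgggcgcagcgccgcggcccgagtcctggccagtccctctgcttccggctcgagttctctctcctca

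In GRCm38, 54 members lay in the Hist1 cluster on chromosome 13 (21715763 to 23934851), 10 in Hist2 on chromosome 3 (96219865 to 96270132), 2 in Hist3 on chromosome 11 (58948920 to 58956830) and Hist4h4 alone on chromosome 6 (136801553 to 136804415). The transcripts of 5 members were spliced and the others had a single exon, and 7 members overlapped another gene on the same strand. The coordinates of the members named most are chr13:21833026-21833507 for Hist1h2ap (minus strand), chr13:21779883-21780625 for Hist1h1b (minus), chr13:23620629-23622558 for Hist1h1e (minus), chr13:23744973-23745602 for Hist1h3c (minus), chr13:23581598-23582735 for Hist1h4d (plus), chr13:23684199-23692908 for Hist1h2bc (plus), chr11:58948920-58949533 for Hist3h2ba (plus) and chr11:58954685-58956830 for Hist3h2a (plus).

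Of the cells called, 7363 carried the tag of a named mouse, namely 1316, 1491, 2749 and 1807 in mice 1 to 4, with a median of 16386 to 17354 UMIs per cell and 25761268 to 52777501 UMIs per mouse. They formed 25 clusters, which marker genes placed in 15 named classes and 6 unnamed clusters. NPC-like (nephron progenitor) cells joined a cluster of 322 cells, with Cited1, Six2 and Eya1 among its leading genes, and a cluster of 498 cells. The latter was led by Tmem100 and Wnt4 and had Eya1 and Six2, but not Cited1, among its leading genes. The paper uses Wnt4 as a marker of pretubular aggregates, so the class is not of uncommitted progenitors alone. Endothelia-like cells were led by Kdr, Flt1 and Emcn, Pod-like (podocyte) cells by Podxl, and PT-like (proximal tubule) cells by Slc34a1 and Fbp1. Trim28, the targeted gene, was at 28.5 and 24.5 CPM (UMIs scaled to the same total in every mouse) in the NPC-like cells of the ko mice and at 141 and 162 CPM in those of the wt mice. It fell by 2.66 on the log2 scale there (adjusted p = 0.000295, edgeR), and it was called lower in 9 classes. In Stroma-like cells, which Cre does not reach, it was at 105 and 104 CPM against 83.9 and 113 CPM. The counted 3' end lies outside the deleted segment, so these values check the transcript level and not the deletion itself.

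The members together held 291129 of 145477998 UMIs (0.200%). UMIs were found for 63 members, whereas Hist1h2aa, Hist1h2ba, Hist1h2bq and Hist2h2aa2 were at 0 in all kept cells. The 12 members with the highest counts held 81.3% of the members' UMIs, a share of counted 3' ends that is not a comparison per length. In all cells, Hist1h2ap (an H2A gene) was at 438 ± 107 CPM (SD, n = 4 mice), Hist1h2ae (H2A) at 226 ± 65.1, Hist1h1b (H1) at 215 ± 46.0 and Hist1h1e (H1) at 157 CPM. Hist1h2bc (H2B) was at 118, Hist3h2ba (H2B) at 84.5, Hist1h4d (H4) at 74.8, Hist1h1c (H1) at 59.1 and Hist1h3c (H3) at 51.4 CPM. The remaining 3 of the 12, Hist3h2a (H2A), Hist1h4h (H4) and Hist2h2ac (H2A), were at 40.1 to 47.2 CPM. Hist4h4, the sole gene of its cluster, was at 1.88 CPM.

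Cell types differed in their summed histone level, and the 4 classes with the highest sums had the highest shares of cycling cells, but Erythroid-like cells, next by that share (52.1% cycling), were at 778 CPM. Of the 163 Erythroid-like cells 127 lay near the cut between phases and 79.8% kept their phase after thinning, so that share is uncertain. Cells were assigned to a cell cycle phase from the expression of 43 S and 54 G2/M genes, which hold no member, and G1 stands here for every cell without a positive score, resting and differentiated cells included. The sum of the members was highest in the unnamed cluster 16 (led by Pdgfrb, Ebf1 and Gucy1a1) at 6655 ± 1138 CPM (SD, n = 4 mice), where 100% of 187 cells were called S or G2/M. RV-like (renal vesicle) cells followed at 5111 ± 681 CPM, also with 100% of 706 cells cycling. This class joined a cluster of 374 cells, with Dll1 and Lhx1 among its leading genes, and a cluster of 332 cells, with Fgf8 and Bmp2. Both also had the cell cycle genes Ube2c and Cenpf and a member (Hist1h3c or Hist1h2ap) among their leading genes. The class thus holds cycling cells alone, and its level is not that of all renal vesicle cells. NPC-like cells were at 3952, 3511, 4510 and 3061 CPM in mice 1 to 4, with 77.0% of 820 cells cycling. The ranges of these mice overlapped those of UB-like (ureteric bud) cells in part, where the sum was 2609 ± 565 CPM. Immune-like (2277 ± 383) and Endothelia-like cells (2198 ± 539) came next, with 43.5% and 42.2% of their cells cycling, whereas cluster 8, with 39.4% of its cells cycling, was at 841 CPM.

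At the other end were differentiated epithelia. PT-like cells were at 707 ± 20.3 CPM and CD-like (collecting duct) cells at 552 ± 49.7 CPM, with 3.52% and 3.43% of cells cycling. From DT-like (distal tubule) cells at 745 ± 205 CPM to cluster 23 at 1126 ± 447 CPM, the classes Erythroid-like, Mural-like, SSB-like (S-shaped body), cluster 8, Stroma-like, ErPT-like (early proximal tubule), cluster 14, LOH-like (loop of Henle) and cluster 5 lay in this order, with neighbours that overlapped. Cluster 24, with 61 cells, was at 1446 ± 147 CPM. Single mice gave few cells in some classes: 3 in cluster 24 (mouse 4), 5 in cluster 23 (mouse 3) and 7 in ErPT-like cells (mouse 1). In Pod-like cells the sum was 1407, 1233, 1511 and 1387 CPM in the 4 mice, with 3.5% of 143 cells called S or G2/M, and all mice were above those of PT-like and CD-like cells, the classes with a like share of cycling cells. Mouse 3 of cluster 5 (1519 CPM) was higher still, but it held 19 cells, of which 5.26% were called S and 21.1% G2/M. Its G1 cells were at 582 CPM. The Pod-like mean was 1111 CPM when members were kept among the variable genes. In G1 cells alone the sum was 537 CPM in Endothelia-like, 669 CPM in Immune-like and 629 CPM in PT-like cells. The classes were formed without the members among the variable genes, but other cell cycle genes were used, and RV-like and cluster 16 hold 0 cells called G1, so levels by class are a description with no test.

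**Figure D1:**
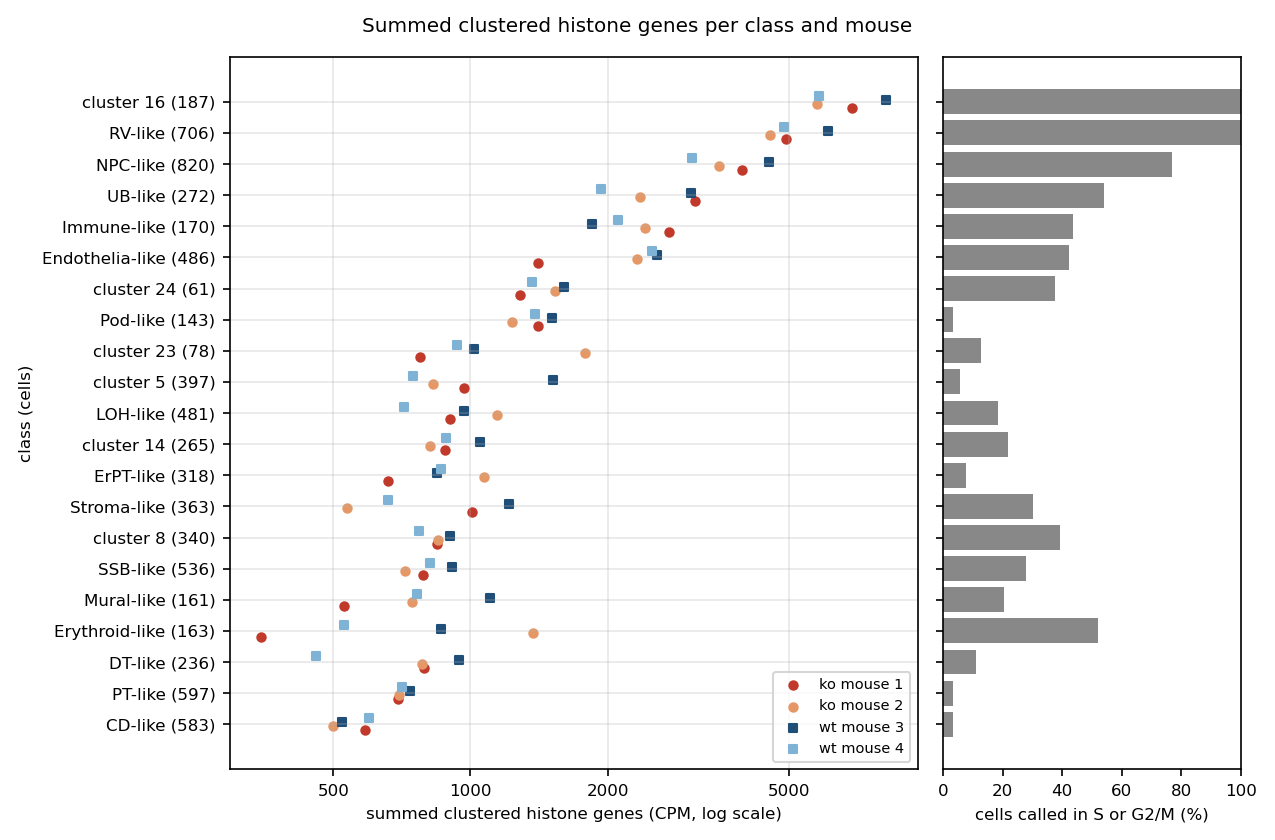
Summed level of the 67 clustered histone genes per class and mouse (left, CPM on a log axis, 1 point a mouse, ko and wt marked by colour) beside the percentage of cells of the class called S or G2/M (right, bars). The sums run from about 552 CPM in CD-like to 6655 CPM in cluster 16, and Pod-like cells lie above PT-like and CD-like cells, which have a like share of cycling cells.

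By type of histone, the H2B genes held the highest sum in Pod-like cells. In Pod-like G1 cells the H2B genes summed to 706 ± 69.1 CPM (SD, n = 4 mice), the H2A genes to 279 and the H1 genes to 247 CPM, whereas H4 was at 81.0 and H3 at 30.9 CPM. In NPC-like G1 cells the same sums were 367, 223, 174, 115 and 26.6 CPM for H2B, H2A, H1, H4 and H3, and the H2B sums of the mice (290 to 410 CPM) lay below those of Pod-like cells (639 to 790 CPM). In Endothelia-like G1 cells the H2B genes were at 140 ± 22.6 and the H2A genes at 164 ± 21.5 CPM, and in Stroma-like G1 cells at 163 ± 51.3 and 180 ± 9.20 CPM, so the mice overlapped in each. In free RNA (barcodes with too few UMIs for a cell) Hist1h2ap alone was at 543 CPM, above every H2A sum given here. Hist1h2bc (101 CPM) and Hist3h2ba (84.8 CPM) together were above the mean H2B sums of Endothelia-like and Stroma-like cells there. These H2A and H2B sums and their order are thus not read as expression. Of the H1 sum, mouse 3 held the highest value at 427 CPM.

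The question of how the members depend on the cell cycle was addressed within single classes, where cell type is held as constant as the clusters allow. Over all cells, 4603 were called G1, 1401 S and 1359 G2/M, with median depths of 15307, 17910 and 22310 UMIs. The calls are ranges of a score and not types: 856 of the 7363 cells lay within 0.05 of the cut, 122 of them among the 820 NPC-like cells, and 95.0% of cells kept their phase when every cell was thinned to 6800 UMIs. The summed level was 665 CPM in G1, 3167 CPM in S and 4284 CPM in G2/M (means of 4 mice). Mouse 3 stood apart in S phase, at 4876 CPM against 2551 to 2667 CPM in the other mice.

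NPC-like cells gave the widest view, with 189, 359 and 272 cells in G1, S and G2/M. Counts were summed per mouse and phase and tested with edgeR's quasi-likelihood test with the mouse as a block and Benjamini-Hochberg adjustment over all genes. In S against G1, 30 of the 35 members tested rose, against 13.7% of all 8868 genes tested. Another 3 fell, against 9.95% of all genes. The remaining members, Hist1h2ac (0.70, adjusted p = 0.187) and Hist1h1c (0.43, adjusted p = 0.0926), did not pass the test. The median difference over the 35 members was 2.76 on the log2 scale. A gene was tested if it had enough counts in the cells of at least 1 phase. Members near 0 in G1 could thus enter through S or G2/M, where they are high. The count of members that rose and the median include such members. Leaving out each mouse in turn gave 28 to 33 members that rose and 3 that fell. Mouse 1 gave 9 cells called G1, under the minimum of 10 used in the other classes, and the comparison in this class and in all others but Endothelia-like was added after the data were seen.

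Among the H2A genes, Hist1h2ap was at 85.4, 58.6, 60.2 and 62.7 CPM in the G1 cells of mice 1 to 4, at 945, 955, 1605 and 721 CPM in S and at 1127, 1117, 1188 and 1014 CPM in G2/M. No G1 value came near an S or G2/M value, and the difference of S from G1 was 3.95 ± 0.14 on the log2 scale (SE, adjusted p = 1.92e-21, edgeR). Hist1h2ae rose by 3.1 and Hist2h2ac by 2.76 on the same scale.

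The H1 genes rose to different extents. Hist1h1b was at 34.1, 27.6, 43.0 and 29.8 CPM in G1 and at 497, 658, 717 and 455 CPM in S, a difference of 3.91 ± 0.15 (adjusted p = 7.64e-21, edgeR). Hist1h1a, the member of this type with the largest difference, rose by 4.36 ± 0.34, Hist1h1e by 1.74 and Hist1h1d by 1.48. Hist1h1c was at 34.1, 24.1, 65.9 and 44.6 CPM in G1 and at 56.7, 53.9, 134 and 39.2 CPM in S, and its phases overlapped.

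Of the H3 genes, Hist1h3c was at 8.54, 0, 8.60 and 4.70 CPM in G1 and at 151, 119, 186 and 63.0 CPM in S. The mice did not overlap and the difference was 4.22 ± 0.27 (adjusted p = 8.93e-15, edgeR). Of the H4 genes, Hist1h4d was at 42.7, 41.4, 31.5 and 28.2 CPM in G1 and at 130, 113, 216 and 101 CPM in S, a difference of 2.06 on the log2 scale, and Hist1h4h rose by 1.76 and Hist1h4i by 0.87. Hist4h4 was at 0 to 3.45 CPM in G1 and 1.22 to 5.40 CPM in S, too low for the filter, and was not tested there.

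The H2B genes moved both ways. Of the members tested, Hist1h2bn and Hist2h2bb had the largest differences, at 5.14 ± 0.68 and 4.49. They started from low levels in G1 and may have entered the test through S or G2/M. Hist1h2bc, in contrast, was at 213, 82.8, 105 and 166 CPM in G1 and at 54.0, 55.1, 63.7 and 46.7 CPM in S. All mice were lower in S, and Hist1h2bc fell by 1.42 ± 0.16 on the log2 scale (adjusted p = 6.59e-09, edgeR). Hist3h2ba was at 179, 197, 230 and 213 CPM in G1 and at 89.1, 80.9, 147 and 98.9 CPM in S, and fell by 1.05 ± 0.12 (adjusted p = 1.03e-08). The 3 members that fell were these and the H2A gene Hist3h2a, which was at 68.3, 58.6, 74.5 and 50.1 CPM in G1 and at 16.2, 15.9, 36.4 and 24.3 CPM in S and fell by 1.28 ± 0.18 (adjusted p = 6.89e-07, edgeR). All 3 are on the list of members with polyadenylated or replication-independent transcripts given as background. Of the other genes of that list tested in these cells, Hist1h2be rose by 2.33 and Hist1h1c did not pass the test. In S, Hist1h2bc and Hist3h2a lay below their levels in free RNA (101 and 38.7 CPM) in every mouse. Hist3h2ba did so in mouse 2 alone (84.8 CPM in free RNA). The part of free RNA in these falls was not measured.

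**Figure D2:**
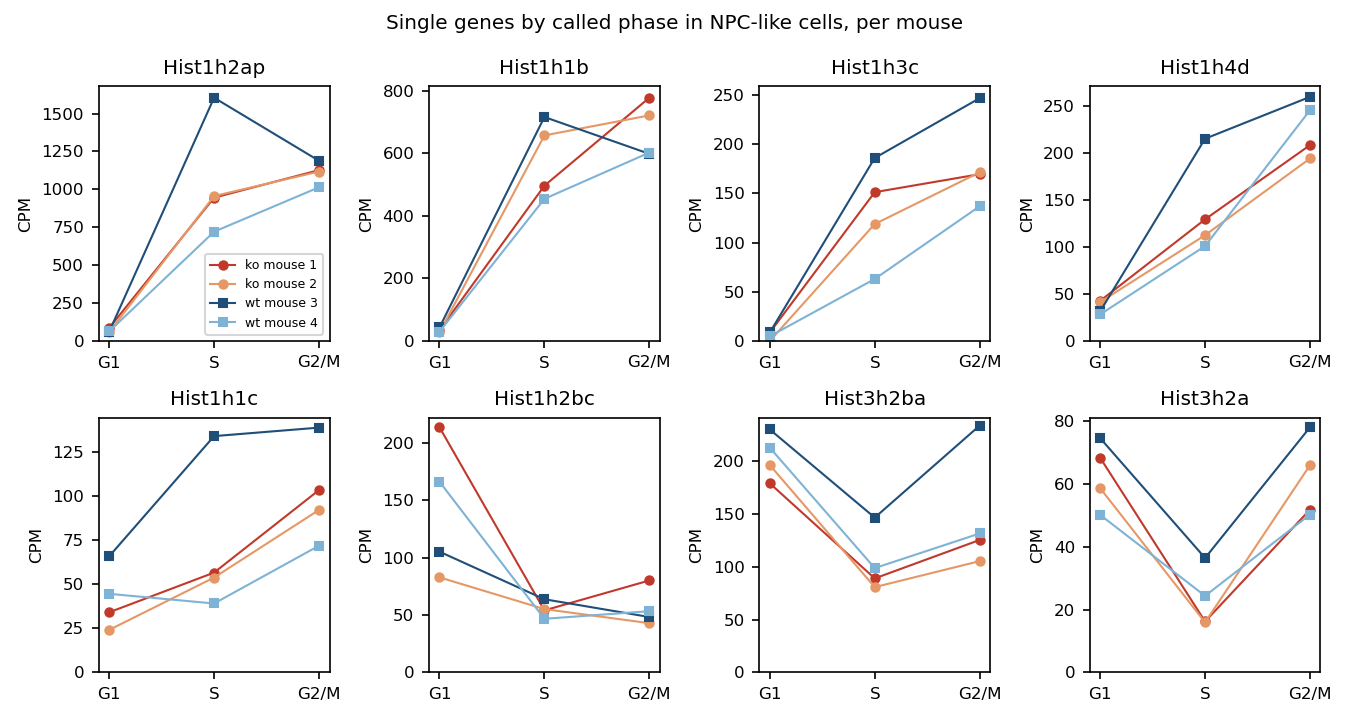
Levels of 8 clustered histone genes in NPC-like cells by cell cycle phase (CPM from 0, 1 point a mouse, ko and wt marked by colour). Hist1h2ap, Hist1h1b, Hist1h3c and Hist1h4d are higher in S and G2/M than in G1 in every mouse, whereas Hist1h2bc, Hist3h2ba and Hist3h2a are lowest or near their lowest in S.

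The H2B sum, which holds Hist1h2bc and Hist3h2ba, moved in opposite directions in different mice. In NPC-like cells the sum of the H2B genes in S was 0.811, 1.26, 1.46 and 0.675 times that in G1 in mice 1 to 4. The sum of the H3 genes was 8.07, 26.4, 11.5 and 5.72 times that in G1 in mice 1 to 4, the highest value resting on 10.3 CPM in the G1 cells of mouse 2. For the H2A genes the factors were 5.85, 8.91, 12.1 and 6.32, so the ranges of H3 and H2A overlapped. The H1 genes were at 5.31 to 7.64 times and the H4 genes at 2.46 to 5.13 times their G1 sum. In Endothelia-like cells the mean factors were 10.8 for H2A, 7.90 for H3, 4.74 for H1, 3.87 for H4 and 1.61 for H2B.

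In Endothelia-like cells (281 G1, 100 S and 105 G2/M cells) 24 of 27 members rose in S against G1, against 8.37% of all 7637 genes tested, and the median difference was 2.35. As in NPC-like cells, members could enter this test through the phase in which they are high. Hist1h2ap was at 60.7, 29.1, 57.8 and 57.6 CPM in G1 and at 722, 824, 1363 and 1195 CPM in S, a difference of 4.29 ± 0.15 (adjusted p = 9.02e-16, edgeR). Hist1h1b rose by 4.04, Hist1h3c by 3.30, Hist1h1e by 1.23 and Hist1h1c by 0.86. By edgeR 0 members fell, against 4.36% of all genes, 1 was lower at an unadjusted p under 0.05, and DESeq2 also called 0. The 3 members that fell in NPC-like cells did not pass the test here. The log2 difference was -0.39 for Hist1h2bc (adjusted p = 0.17), -0.34 for Hist3h2a (adjusted p = 0.455) and 0.36 for Hist3h2ba (adjusted p = 0.541). Hist3h2ba was at 29.1, 22.2, 46.7 and 23.0 CPM in G1 and at 9.54, 9.74, 83.2 and 60.7 CPM in S, where the ko mice were low and the wt mice high. All of these values lie below its 84.8 CPM in free RNA (barcodes with too few UMIs for a cell). The part of free RNA in these values was not measured, so neither the change nor the split of the mice is read as expression. Of the 27 members tested in both classes, 23 rose in both. The share of all genes that rose in both was not taken. In the single classes it was 13.7% in NPC-like and 8.37% in Endothelia-like cells.

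In SSB-like, Stroma-like and cluster 8 cells fewer members passed the test between cells called S and G1. Some cycling cells with like marker genes formed clusters of their own without G1 cells: an RV-like cluster shares Fgf8, Spon1 and Cxcl14 with cluster 8 among its leading genes (cluster 16 shares Ebf1, Ndufa4l2 and Rgs5 with Mural-like cells, and of the leading genes of Stroma-like cells Penk alone). The S cells counted here are those left in each class, and the part of this separation in the differences was not tested. In SSB-like cells (387 G1 and 123 S cells) 4 of 11 members rose, against 10.2% of all genes, and 2 fell, against 8.52%. Hist1h1b was at 21.6, 20.6, 30.6 and 23.2 CPM in G1 and at 59.9, 27.9, 116 and 57.0 CPM in S, and rose by 1.51. Hist1h2ap was at 62.3, 41.1, 53.7 and 57.6 CPM in G1 and at 64.9, 55.9, 169 and 82.2 CPM in S, so the phases overlapped, and it rose by 0.91 on the log2 scale in the blocked fit. The sum of the members in S was 656, 598, 1175 and 798 CPM against 787, 755, 808 and 738 CPM in G1, and was higher in S in the wt mice and lower in the ko mice.

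Of the other members that passed in SSB-like cells, Hist1h4i rose by 0.76 and Hist1h2ae by 0.63. Hist3h2a was at 45.8, 76.0, 36.3 and 42.2 CPM in G1 and at 7.48, 24.7, 20.1 and 28.5 CPM in S and fell by 1.16. Hist3h2ba fell by 0.33. With each mouse left out in turn, 2 to 5 members rose and 1 to 3 fell in SSB-like cells. Fewer passed without the block, with DESeq2 or with phases called after thinning. Of 536 SSB-like cells 101 lay within 0.05 of the cut between G1 and the other phases, against 83 of 486 Endothelia-like cells, and the part of this in the size of the differences was not tested.

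In Stroma-like cells 3 of 9 members rose (Hist1h1b by 2.27, Hist1h2ap by 2.06 and Hist1h2ae by 1.56), against 1.76% of all genes. Hist1h2bc and Hist3h2a fell by 1.46 and 1.21 there, against 0.764% of all genes. These counts were 1 higher and 0 lower without the block, 1 and 1 with DESeq2, and 1 and 1 without wt mouse 3, and 1 member fell whichever mouse was left out. Hist1h2ap in S was at 322, 60.1, 627 and 91.7 CPM in mice 1 to 4, high in mice 1 and 3 and near its G1 level (56.0 to 69.4 CPM) in mouse 2. In cluster 8, an unnamed cluster led by Spon1, Sim2 and Fgf8, 1 of 11 members rose (Hist1h1b by 0.71, against 3.08% of all genes) and 1 fell (Hist3h2ba by 1.02, against 1.22%). Over the 5 classes, 31 of the 35 members tested rose in at least 1 class, the other members being the 3 that fell in at least 1 and Hist1h2ac. The share of all genes that rose in at least 1 class was not taken. Of the 9 members tested in all classes, Hist1h1b alone rose in each, and its call in cluster 8 was lost with DESeq2, without the block, with no filter, with phases called after thinning, without the cells near the cut, and without ko mouse 1, wt mouse 3 or wt mouse 4 (0 members higher in each).

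**Figure D3:**
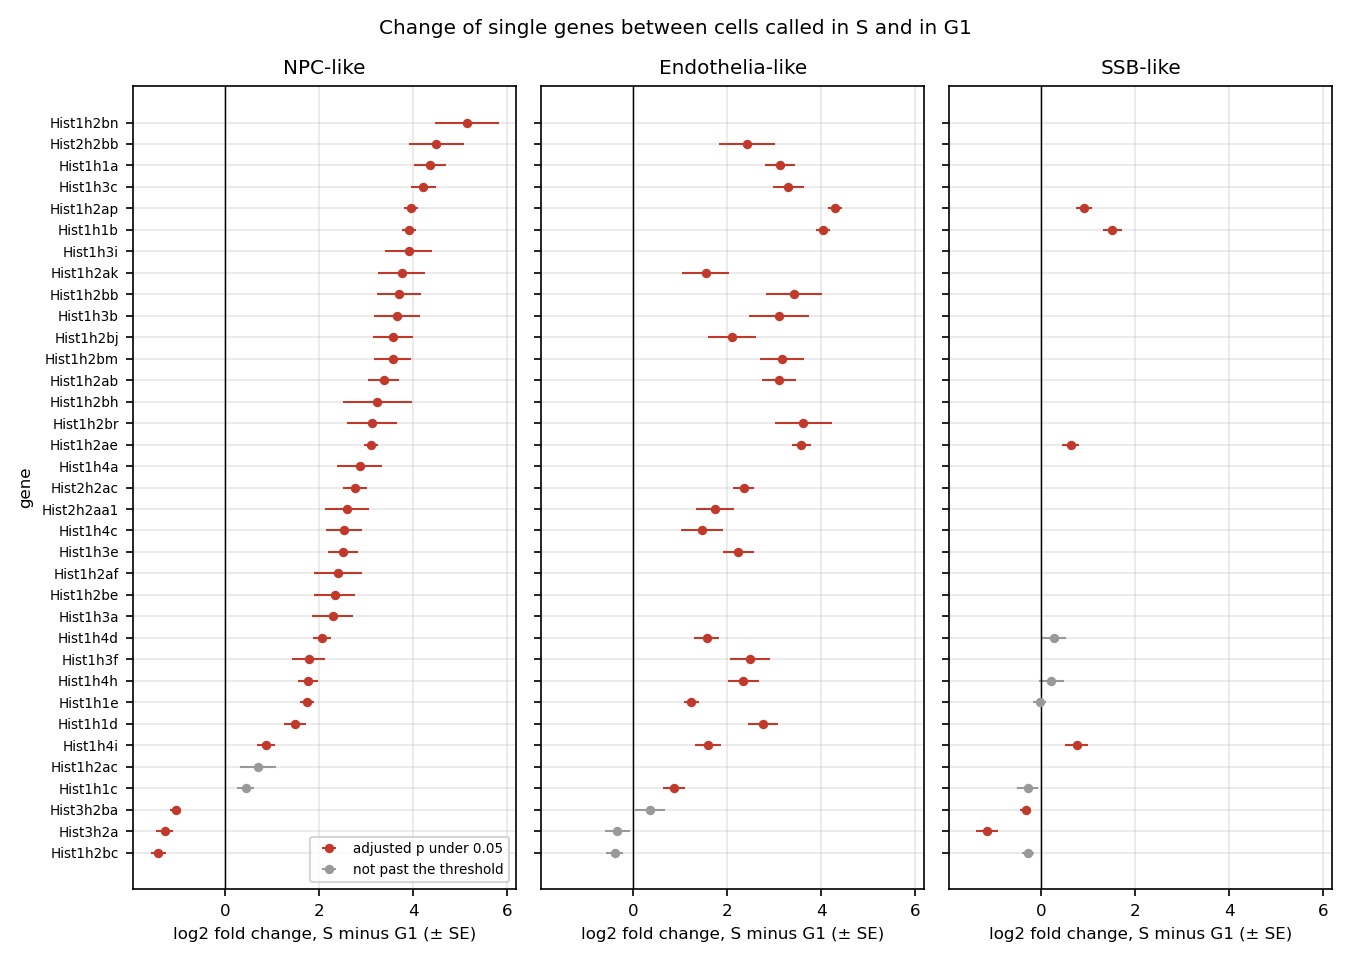
Difference of S from G1 (log2 fold change ± SE from edgeR, mouse as a block) for the 35 clustered histone genes tested in NPC-like cells, with the same genes in Endothelia-like and SSB-like cells where tested. Red marks an adjusted p under 0.05, and most members lie between 1 and 5 in NPC-like cells, with Hist1h2bc, Hist3h2ba and Hist3h2a below 0.

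The difference between classes was tested directly, in a fit that held a block for each mouse and class. Only members that also passed the filter in each class alone are counted, since the others entered through NPC-like cells, where they are high in S. The shares over all genes set beside them cover every gene of the fit, without this condition. The S minus G1 difference of NPC-like cells differed from that of SSB-like cells in 8 of these 11 members, against 6.85% of all genes, and was larger in NPC-like cells in 6 of them (Hist1h1b, Hist1h1e, Hist1h2ae, Hist1h2ap, Hist1h4d and Hist1h4h). For Hist1h2ap the difference of differences was 3.0 ± 0.25 and for Hist1h1b 2.39. Hist3h2ba (-0.77) and Hist1h2bc (-1.16) went the other way, with a lower S minus G1 difference in NPC-like cells. Hist1h2bc was not called in SSB-like cells alone. Without wt mouse 4 both calls of the difference were lost (-0.60, adjusted p = 0.111, and -0.61, adjusted p = 0.219, edgeR). Against cluster 8 it differed in 8 of 11 members (4.29% of all genes), 7 of them larger in NPC-like cells, and against Stroma-like cells in 5 of 9 (4.42%), all larger in NPC-like cells. The Stroma-like count was 2 without wt mouse 4. Against Endothelia-like cells it differed in 2 of 27 members (3.28% of all genes), Hist3h2ba by -1.39 ± 0.33 (adjusted p = 0.00873, edgeR) and Hist1h2bc by -0.93 (adjusted p = 0.0388). The Endothelia-like values of Hist3h2ba lie below its level in free RNA, so its difference is not read as one of expression. Pcna, a DNA replication gene, also rose further in NPC-like cells than in Stroma-like cells (by 0.95) and cluster 8 (by 0.82), while against SSB-like cells its difference of 0.59 did not pass the test, and the part of the phase calls, and of the cycling cells that clustered apart from cluster 8, in the members' difference was not tested.

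S and G2/M cells differed less, and in different directions in different classes. In NPC-like cells 12 of 41 members were lower in S than in G2/M, against 6.07% of all genes tested. The count was 5 with DESeq2, 2 without the block and 4 without wt mouse 4. The 12 were led by Hist3h2a (-1.15), Hist2h2bb (-0.97) and Hist1h4d (-0.72) and included Hist1h3c (-0.58), Hist1h1e and Hist3h2ba (both -0.45). None was higher in S by edgeR (0 of 41, against 6.1% of all genes), 2 were higher at an unadjusted p under 0.05, and DESeq2 also called 0. In Endothelia-like cells 6 of 27 members were lower in S, against 2.1% of all genes, among them Hist1h1b (-0.45) and Hist1h2ap (-0.43). This count was 1 with DESeq2 or without the block, 2 without ko mouse 1, 3 without wt mouse 3 and 0 without wt mouse 4. By edgeR 0 were higher there, against 1.34% of all genes, 0 were higher at an unadjusted p under 0.05 and DESeq2 called 0.

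RV-like cells, in which no cell was called G1, went the other way for some members. Of 43 members 10 were higher in S than in G2/M, against 6.3% of all genes, and 2 were lower, against 5.06%. The count of 10 was 2 with DESeq2, 3 without the block and 4 without wt mouse 3, where 5 were lower. Those higher in S were led by Hist1h1a (1.10), Hist1h4a (1.08) and Hist1h3a (1.03) and included Hist1h1b and Hist1h2ae (both 0.62) and Hist1h2ap (0.51). Those lower in S were Hist3h2a (-0.87) and Hist3h2ba (-0.51), so these genes of the Hist3 cluster were lower in S than in G2/M in RV-like as in NPC-like cells. The difference between RV-like and NPC-like cells itself was not tested.

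The members that fell in S also varied between cell types among G1 cells. Hist3h2ba was at 318, 427, 464 and 483 CPM in Pod-like G1 cells, at 205 ± 21.9 CPM in NPC-like, 157 ± 27.2 in cluster 14, 154 ± 8.12 in SSB-like and 144 ± 25.3 in cluster 8 cells, each of the latter overlapping the next in this order. In PT-like (29.2 ± 7.68 CPM) and Mural-like G1 cells (21.3 ± 15.2 CPM) it was below its level in free RNA (84.8 CPM, in barcodes with too few UMIs for a cell), so these values and their order are not read as expression. No mouse of any other class reached the lowest Pod-like mouse.

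Hist1h2bc had another order. It was highest in PT-like G1 cells (272, 268, 225 and 357 CPM) and in Pod-like G1 cells (293, 219, 247 and 292 CPM), which overlapped each other. Cluster 5, led by Aadat, Cryab and Aqp1, followed at 194 ± 37.4 CPM. CD-like G1 cells, at 55.6 ± 34.8 CPM with mouse 4 at 104 CPM, had a mean below the 101 CPM of free RNA. Hist3h2a was at 166, 149, 144 and 82.2 CPM in Pod-like G1 cells and at 87.1 ± 14.9 CPM in cluster 5, which overlapped mouse 4 of the Pod-like cells. Hist1h1c was at 74.1, 85.4, 292 and 82.2 CPM in Pod-like G1 cells, where mouse 3 alone was high, and at 33.2 to 60.3 CPM on average in the other classes. Several of these means, among them cluster 8 (33.2 CPM) and DT-like cells (34.8 CPM), lie below its 41.4 CPM in free RNA and are not read as expression.

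Of the members that rose in S, 3 are given by their level in G1 cells. Hist1h2ap was at 29.2 to 68.0 CPM on average in the 15 classes shown (NPC-like included, with 9 G1 cells in mouse 1), and Hist1h1b at 9.96 to 35.3 CPM, all below their levels in free RNA, so no order between classes is read from them. Hist1h1e, whose reads may be shared with Hist1h2be, was at 43.9 to 97.2 CPM.

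**Figure D4:**
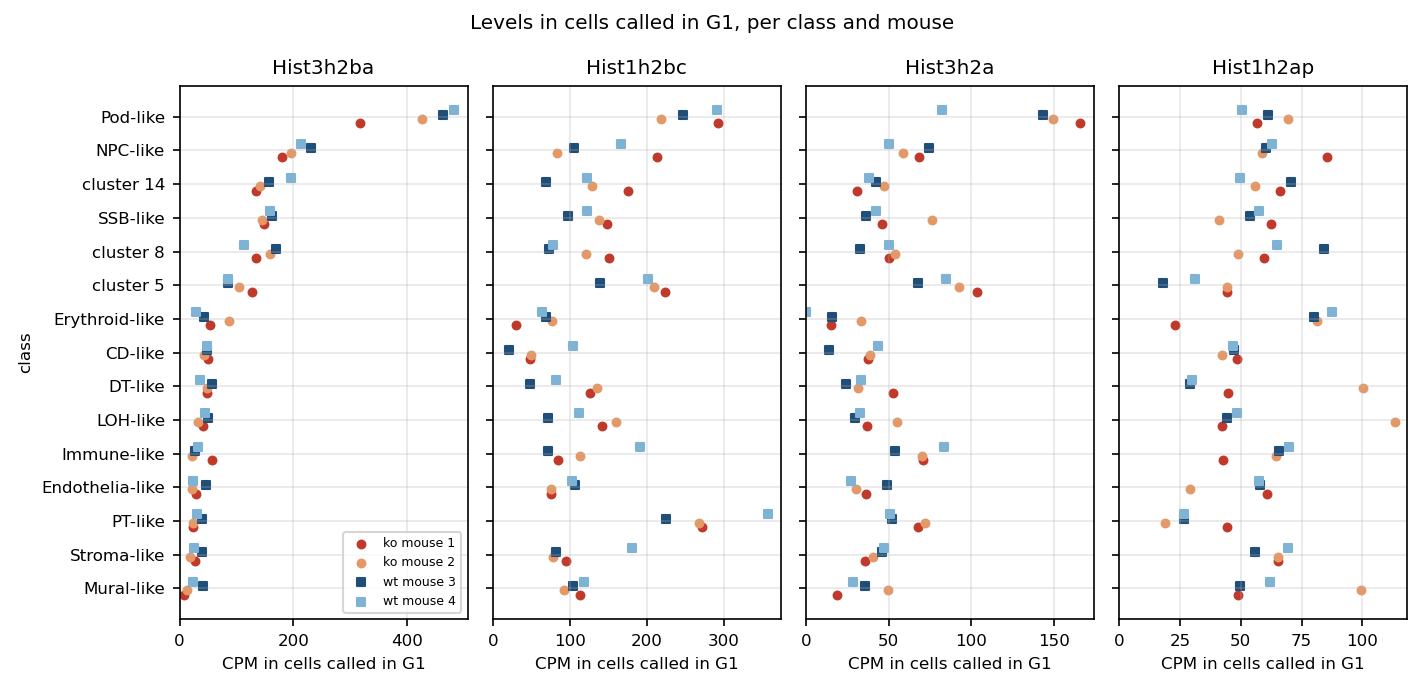
Levels of Hist3h2ba, Hist1h2bc, Hist3h2a and Hist1h2ap in cells called G1, by class and mouse (CPM, 1 point a mouse, 14 classes with 10 or more G1 cells in every mouse and NPC-like, with 9 in mouse 1). Hist3h2ba is highest in Pod-like cells (318 to 483 CPM) and Hist1h2bc in PT-like and Pod-like cells, whereas class means of Hist1h2ap stay between 29.2 and 68.0 CPM.

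Shares of cells with a UMI were taken at equal depth over all classes together, so phase and cell type are mixed in them. After thinning every cell to 6800 UMIs, 29.1% of G1 cells, 60.0% of S cells and 83.6% of G2/M cells had a UMI of Hist1h2ap, and 53.1%, 78.4% and 92.8% had one without thinning. Hist1h1b was found in 13.8%, 53.0% and 71.0% of thinned cells and Hist1h3c in 4.06%, 28.8% and 49.2%. For Hist1h2bc the shares were 43.4%, 26.8% and 32.7%. The PT-like G1 cells (576 cells, median of 24772.5 UMIs), of a class with few cycling cells, gave a background for these genes, as 17.7% had Hist1h2ap after thinning (95% exact interval of 14.7% to 21.1%, unthinned 48.8%) and 2.95% had Hist1h3c. In the same cells 76.7% had Hist1h2bc (73.1% to 80.1%). In Pod-like G1 cells (138 cells, median of 9900 UMIs) 87.7% had Hist3h2ba (81.0% to 92.7%, unthinned 94.9%), against 17.9% (14.8% to 21.3%, unthinned 43.4%) in PT-like G1 cells. These intervals cover counting error only.

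Free RNA carried the members too. It comes from the whole pool, the cells with other tags included. In 353040 barcodes of 10 to 100 UMIs, too few for a cell, the members were at 1249 CPM, against 665 CPM in G1 cells, and Hist1h2ap was at 543 CPM (524 to 563), against 49.7 CPM in G1 cells. Other members were higher in free RNA too, among them Hist1h1b at 51.6, Hist1h2ae at 69.0, Hist1h4i at 38.5 and Hist1h3c at 21.6 CPM. Where single genes were compared between classes in G1 cells, a level below that of free RNA was not read as expression. Sums over the members or over a histone type hold free RNA too, and its part in them was not measured.

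The other genes of histone supply were set beside the members. Of 14 DNA replication genes (Pcna, the Mcm genes, Rrm2 and others), 14 rose in S against G1 in NPC-like and Endothelia-like cells, 13 of 13 in SSB-like cells and in cluster 8, and 11 of 11 in Stroma-like cells, with medians of 2.28, 2.43, 1.94, 1.84 and 1.83. Several of these genes are in the lists that called the phases, so this is a check of the calls and not a result. The members' medians in these 5 classes, in the same order, were 2.76, 2.35, 0.22, -0.05 and 0.51. They cover different members (27 in Endothelia-like, 11 in SSB-like, 11 in cluster 8, 9 in Stroma-like and more in NPC-like cells) and are not compared. Over members tested in each class alone, the S minus G1 difference of NPC-like cells was larger by a median of 1.49 than in SSB-like cells. This median was 1.76 for cluster 8, 1.19 for Stroma-like and 0.29 for Endothelia-like cells. Of the histone mRNA processing and transcription genes, those outside the lists that called the phases rose in 7 of 16 cases in NPC-like, 4 of 13 in Endothelia-like and 2 of 13 in SSB-like cells and 1 of 13 in cluster 8, against 13.7%, 8.37%, 10.2% and 3.08% of all genes. In Stroma-like cells the 2 that rose, Slbp and Casp8ap2, are both in the S list. Slbp, which binds the stem-loop, is in that list as are Casp8ap2 and Ccne2. Its differences of 0.75 to 1.70 over these 5 classes are thus partly set by the calls and are no result. Npat, which is in neither list, did not pass the test (0.65 in NPC-like cells, adjusted p = 0.0735).

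Among the histone chaperones, which carry histones to DNA, 9 of 16 rose from G1 to S in NPC-like and 10 of 16 in Endothelia-like cells, against 13.7% and 8.37% of all genes. In SSB-like cells 8 of 15 rose, in cluster 8 6 of 15 and in Stroma-like cells 4 of 13, against 10.2%, 3.08% and 1.76% of all genes. Nasp and Chaf1b, which are in the S list, were left out.

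The replication-independent variants, which lie outside the clusters and have polyadenylated mRNAs, moved in both directions. H2afz rose from G1 to S by 1.24 in NPC-like, 1.17 in Endothelia-like, 0.91 in SSB-like and 0.56 in Stroma-like cells. H2afx, whose transcripts are known in both forms, rose by 1.57 in NPC-like and 2.12 in Endothelia-like cells and was lower in S than in G2/M (-1.81 and -1.57 on the log2 scale). H3f3b fell by 0.22 in NPC-like and by 0.47 in cluster 8 cells, and H1f0 fell by 0.40 and 0.46 in the same classes. H3f3a was not called in any of the 5 classes (-0.05 to 0.13).

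Between genotypes, no clustered histone gene was called. Counts were summed per mouse in the 18 classes with at least 10 cells in every mouse and tested with edgeR, 2 ko against 2 wt mice. Of 436 pairs of a member and a class, 0 passed, against 0.286% of all 162609 pairs of a gene and a class, and 1.09% of genes in NPC-like cells. At an unadjusted p under 0.05 there were 40 pairs (9.17%, against 6.91% of all pairs), 11 higher and 29 lower in ko, and DESeq2 also called 0, with 16 pairs at an unadjusted p under 0.05. In 6 of the 18 classes no gene at all was called. On simulated counts for NPC-like cells (11564 genes) the same fit recovered 30 of 100 genes with a log2 difference of 1 and 79 of 100 with a log2 difference of 2, so many differences of the smaller size would be missed with 2 mice a genotype.

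Summed over the members, all cells of the ko mice were at 1543 and 1663 CPM and those of the wt mice at 2389 and 2053 CPM, without overlap. Of the cells, 14.8% and 19.2% of the ko mice and 14.3% and 29.1% of the wt mice were called S, and 14.1% and 14.9% against 21.5% and 19.9% were called G2/M. Mice 1 to 4 gave 1316, 1491, 2749 and 1807 cells. Of these 55, 88, 250 and 427 were NPC-like and 95, 140, 296 and 175 RV-like, and cluster 16 held 23, 29, 92 and 43. These classes had the highest sums. The paper reports fewer nephron progenitor and renal vesicle cells in Trim28 delta/delta kidneys, and the part of this mix in the summed level was not tested. Within NPC-like cells the sums overlapped (3952 and 3511 against 4510 and 3061 CPM). The sums of the genotypes did not overlap in 6 classes of 21, higher in ko in Immune-like and lower in ko in Endothelia-like, cluster 14, SSB-like, Mural-like and PT-like cells, and these are values of 2 and 2 mice with no test. With so few mice a lack of overlap is common without any difference, so the count is not read as a change. The median of the members' log2 differences was below 0 in 14 of the 18 classes, at -0.14 in NPC-like, -0.29 in RV-like, -0.39 in Endothelia-like and -0.44 in Stroma-like cells, and above 0 in Immune-like (0.33) and LOH-like cells (0.21). Among the classes that Cre does not reach, this median went both ways. It was below 0 in Endothelia-like, Stroma-like and Mural-like cells, the last being the lowest of the 18 classes, and above 0 in Immune-like cells. The median over all genes is not given beside these values. Since 2 mice stand for each genotype, a difference between mice in the share of cycling cells and a difference between genotypes cannot be told apart.

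The pair closest to the threshold was Hist1h2bc in DT-like cells, higher in ko by 0.97 ± 0.24 on the log2 scale (adjusted p = 0.174, edgeR). The difference of Hist3h2ba was -1.28 in Endothelia-like cells (adjusted p = 0.827, edgeR) and -0.66 in NPC-like cells (adjusted p = 0.242). In Endothelia-like cells its levels in G1 and S lay below that of free RNA, so the value there is not read as expression. That of Hist3h2a was 0.47 in PT-like cells (adjusted p = 0.251). None of the genes of the processing, chaperone, variant and replication lists was called between genotypes by edgeR in any class (0), with 5 of 288, 9 of 291, 18 of 195 and 21 of 212 pairs at an unadjusted p under 0.05.

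Single mice weighed on the genotype result. With a mouse left out, the other mouse of its genotype stands alone and is assumed to vary as the mice of the other genotype do. The number of pairs called then depended on which mouse was left out, for the members and for all genes. Members were called without wt mouse 4 (the most), wt mouse 3 or ko mouse 2, and none without ko mouse 1. These calls are not read as a result. Mouse 3, which had the highest level of the members in S phase, also had the highest level of H3f3b in NPC-like cells (2778 CPM against 1421 to 1688 CPM), and what sets it apart was not tested.

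**Figure D5:**
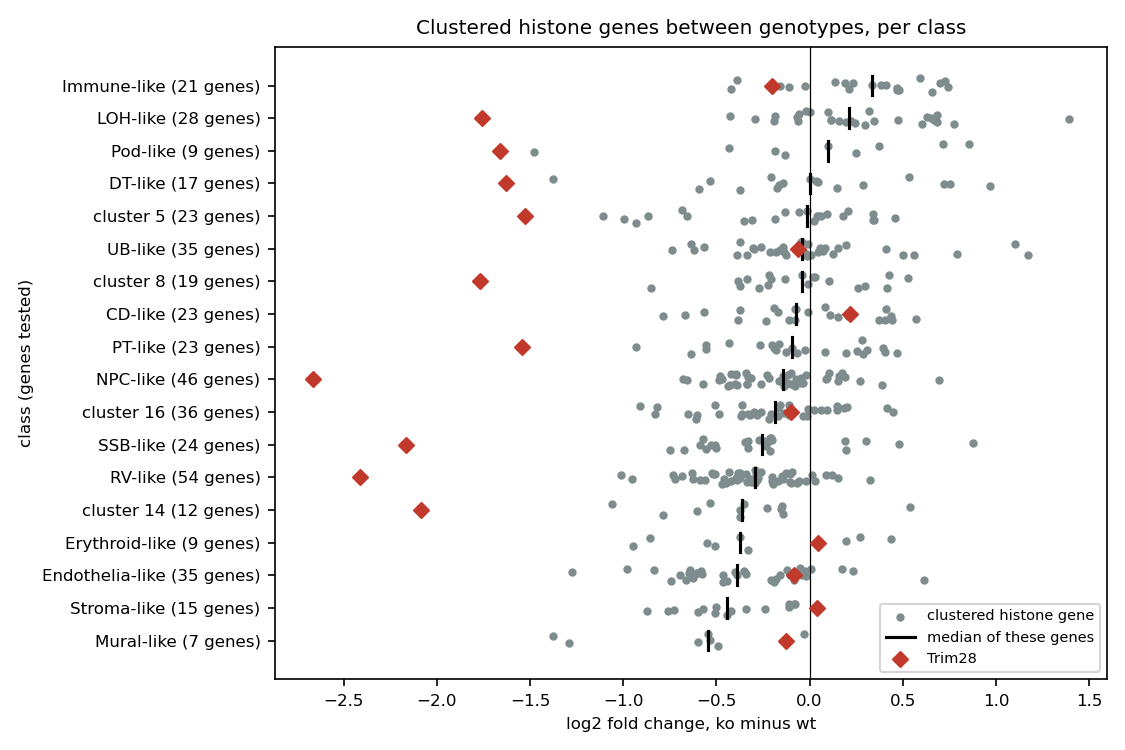
Difference of ko from wt (log2 fold change, edgeR) for each clustered histone gene in each of the 18 classes tested, with the median of the members per class and Trim28 as a diamond. No member passed an adjusted p of 0.05, and the medians lie between -0.54 in Mural-like and 0.33 in Immune-like cells, whereas Trim28 is at -2.66 in NPC-like cells.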

How the data were processed

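The 4 embryos were sequenced in 1 pool, together with cells of other tags, with a gene expression and a tag library. The authors aligned and counted with Cell Ranger (6.0.0 by their notes, 4 by the file header) and deposited counts of UMIs for 32285 genes and 12 tags in 3921239 barcodes, neither normalized nor filtered. The build behind the counts was not given in the sources used here. Later steps of the authors ran in R 4.1.0 and Seurat 4.0.

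Barcodes of 6891 or more UMIs (order-of-magnitude rule, 24000 cells expected) were kept if they had 200 or more genes and no more than 10% mitochondrial UMIs, which left 19272. HTODemux (positive quantile of 0.99) gave 7363 cells of the 4 mice, 4508 with other tags, 4721 doublets, which were left out, and 2680 without a tag. All mice share 1 library, and each barcode kept was assigned to 1 mouse by its tag. Cells were normalized by SCTransform and clustered on 3000 variable genes without the 26 members among them (30 principal components, resolution 0.8) in R 4.3.3, Seurat 5.3.0 and sctransform 0.4.2. Clusters were named from fixed marker lists, by thresholds set after the clusters were seen, so a difference from the study may come from the names. Sums of counts per mouse were tested in edgeR 4.0.16 by quasi-likelihood (TMM, filterByExpr, Benjamini-Hochberg, 0.05). The study tested cells as replicates, whereas here the mouse was the replicate. DESeq2 1.42.0 was an alternative. Mice pair phases, since each gives cells of every phase, and the mouse was a block there. Intervals are exact (Clopper-Pearson, 95%) and cover counting error only. On simulated counts the phase fit of NPC-like cells (8868 genes) recovered 85 of 100 genes at a log2 difference of 1. Sequences come from GENCODE M21 and RefSeq by gene ID and symbol, with promoters matched within 1000 bases of the annotated start.

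Named members are the 12 with the highest counts, the highest of each histone type and cluster, those called between genotypes and those called lower in S than in G1. Others were chosen after their values were seen. The members, gene lists and tests were chosen with earlier results of these data known.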

Additional observations from a re-analysis of the deposited data

Results flagged for a closer look

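The change from G1 to S differed between NPC-like cells and other classes by a test of the difference itself (edgeR, all 4 mice, chosen after the data were seen). It differed in 17 of 27 members for SSB-like cells (6.85% of all genes) and 17 of 23 for cluster 8 (4.29%). For Stroma-like cells it did so in 8 of 19 (4.42%) and for Endothelia-like cells in 2 of 29 (3.28%). Most of the members tested against SSB-like cells, cluster 8 and Stroma-like cells passed the filter only through NPC-like cells, and of those that passed it in each class alone 8 of 11, 8 of 11 and 5 of 9 were called. The members also appeared in barcodes that hold no cell: in those of 10 to 100 UMIs their sum was 1249 CPM and Hist1h2ap was at 543 CPM, above the 665 and 49.7 CPM of G1 cells.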

How the results depend on the processing

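The mouse block carried part of the phase results. Without it the members called were 0 higher in cluster 8 (1 with it), 1 higher and 1 lower in SSB-like (4 and 2) and 1 higher and 0 lower in Stroma-like cells (3 and 2) for S against G1, and for S against G2/M 1 lower in Endothelia-like (6), 2 lower in NPC-like (12) and 3 higher and 0 lower in RV-like cells (10 and 2). The S against G1 counts of NPC-like and Endothelia-like cells stayed within 1.5 times under every alternative, the block included. No paired analysis was possible because the tags pair no ko mouse with a wt mouse for the genotypes.

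With phases called after thinning, 0 rose and 2 fell in cluster 8, 2 and 1 in SSB-like and 1 and 1 in Stroma-like cells. DESeq2 gave 0 higher in cluster 8, 1 and 1 in SSB-like, 1 and 1 in Stroma-like, and for S against G2/M 1 lower in Endothelia-like, 5 lower in NPC-like and 2 higher in RV-like cells. With no filter, 0 rose in cluster 8 and 5 in Stroma-like cells. Without the cells near the cut, 0 rose and 2 fell in cluster 8, 1 fell in Stroma-like cells, and 1 was lower in Endothelia-like and 1 higher (Hist1h1a) in NPC-like cells against G2/M.

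Leaving out each mouse gave, for S against G1, 28 to 33 higher and 3 to 3 lower in NPC-like, 18 to 24 and 0 to 0 in Endothelia-like, 2 to 5 and 1 to 3 in SSB-like, 1 to 3 and 1 to 1 in Stroma-like cells and 0 to 1 and 1 to 2 in cluster 8. For S against G2/M it gave 0 to 2 higher and 4 to 17 lower in NPC-like, 0 to 0 and 0 to 4 in Endothelia-like, and 4 to 13 and 2 to 5 in RV-like cells. The lowest NPC-like count and the 2 higher came without wt 4. In RV-like cells 4 higher and 5 lower came without wt 3. In Endothelia-like cells 2 were lower without ko 1, 3 without wt 3 and 0 without wt 4. In SSB-like cells 2 rose without wt 3, and 1 fell without ko 1 or ko 2. In Stroma-like cells 1 rose without wt 3 and 1 fell without any mouse. In cluster 8, 0 rose without ko 1, wt 3 or wt 4 and 2 fell without ko 1. The difference between NPC-like cells and SSB-like cells was called in 14 to 17 members and that from Stroma-like cells in 4 to 7 (5 without wt 3, 4 without wt 4), and of the members that passed the filter in each class alone in 7 to 8 and 2 to 5.

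Between genotypes, the members called over all classes (0) were 13 with no filter, 1 in S cells only (Hist3h2ba in Endothelia-like cells) and 0 to 92 with each mouse left out, where the lone mouse is assumed to vary like the other genotype. Over all genes and classes 3532 were called with no filter, 190 in S cells and 407 to 13870 with a mouse left out (465 with all). In NPC-like cells these were 504, 69 and 11 to 1386, and 208 with a minimum of 2500 UMIs (126). DESeq2, G1 cells only, members kept among the variable genes and k-means tag assignment gave 0 members. In the S cells of the Endothelia-like class, Hist3h2ba lay below its level in free RNA.

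The summed level moved beyond its SD in PT-like cells after thinning (673 CPM), and in G1 cells only in CD-like (502), cluster 14 (770), DT-like (530), Endothelia-like (537), Immune-like (669), LOH-like (599) and PT-like cells (629). With members kept among the variable genes Pod-like cells were at 1111 and RV-like at 4082 CPM, and with k-means at 1597 and 4010 CPM. Of the values of single members under the alternatives, 736 kept their call, 142 lost it and 0 reversed. The causes were not tested.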
